A study of Schizosaccharomyces pombe with 30 samples.

Results

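The genes described here code for the proteins of the large (60S) ribosomal subunit of the fission yeast Schizosaccharomyces pombe, and the measurement is where the RNA-binding protein Seb1 was crosslinked to their transcripts. Members were all protein-coding genes on chromosomes I, II and III whose RefSeq symbol (assembly ASM294v3) begins with rpl and a digit. This rule gave 76 of the 5113 protein-coding genes, 30 on chromosome I, 28 on chromosome II and 18 on chromosome III. For each gene the window ran on the gene's own strand from the annotated transcription start site to 250 nt after the annotated 3′ end of the transcript.

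The series of 30 samples holds RNA-Seq of WT and seb1 mutant cells, ChIP-Seq and 1 PAR-CLIP sample of Seb1, and only the PAR-CLIP sample was used. PAR-CLIP, in which a photoactivatable nucleoside crosslinks RNA to bound protein before immunoprecipitation, was done on 1 culture of h- cells in which the chromosomal seb1 gene carries a TAP tag and the KanMX marker (seb1::seb1-TAP::KanMX). Growth was at 30 °C in minimal medium containing 4% glucose, uracil at 10 mg per litre and 4-thiouracil at 100 μM. The cells then received another 900 μM of 4-thiouracil for 4 h, and were irradiated at 365 nm with 12 J per cm2. RNA bound to Seb1 was cut with RNase T1, which cleaves after G, and the authors normalized the sites with 1 RNA-Seq library of wild-type (WT) cells. A 4-thiouracil crosslinked to protein is read as C in place of T, so a T-to-C transition marks the contacted base. With 1 library there is no replicate, so no difference below was tested. Intervals are 95% Wilson intervals unless stated otherwise and cover counting error only, since PCR copies cannot be recognised in the counts. Those over sites also treat sites as independent, although neighbouring sites can share reads, so they are too narrow.

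The large ribosomal subunit joins ribosomal RNA to many proteins and forms the peptide bonds of every new protein. In fission yeast most of these proteins are made from a pair of gene copies that lie at separate loci, and the genes are among the most strongly transcribed by RNA polymerase II. The nascent transcript of such a gene is cut at the poly(A) site, and the polymerase continues past this point until it terminates. Seb1 binds both the C-terminal domain of the polymerase and the nascent RNA, through a CTD-interacting domain and an RNA recognition motif, and has a role in transcription termination. The tetramer UGUA, searched for here, contains the GUA that Seb1 is known to recognise. The authors found UGUA by a motif search around the crosslink sites of this same PAR-CLIP experiment.

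The sequences around the sites with the most transitions are shown first. For 2 of them the stretch with the T-to-C change occurs exactly in a spliced transcript. The coding site of rpl1201 matches that of its copy rpl1202, and the intron site of rpl4301 matches that of rpl4301 itself. Their reads may therefore not mark contacts at these bases. Each is printed 5′ to 3′ on the gene's strand as 29 nt of the RefSeq assembly ASM294v3, with the crosslinked base in the middle, at position 15, and each UGUA in capitals. The first 7 are from the 10 sites with the most transitions in the 76 genes, and the remaining 3 of those 10 overlap a stretch already shown. The stretches came from the intron of rpl102 (chrII:3061078-3061106, plus strand, 146 transitions in 462 reads), the coding sequence of rpl1201 (chrIII:691610-691638, minus strand, 116 in 410), the intron of rpl4301 (chrII:259789-259817, minus strand, 75 in 228) and, at 106, 145, 87 and 54 nt after the 3′ end of rpl4301, chrII:259386-259414 (66 in 849), chrII:259347-259375 (62 in 975), chrII:259405-259433 (59 in 635) and chrII:259438-259466 (49 in 560).
rpl102 intron: gcucuagcaUGUAguuugcuggaguucuu
rpl1201 coding sequence: cccaagaugccuccuaaauucgaucccaa
rpl4301 intron: cguacugcugcugguaaguauuguuuagc
rpl4301, 106 nt after the end: gaauuugaacagcaUGUAuauuggugcug
rpl4301, 145 nt after the end: gaaguggaaguaccuugcuuuuccauacg
rpl4301, 87 nt after the end: uguuaguaaaaaauUGUAcgaauuugaac
rpl4301, 54 nt after the end: uuuuUGUAggauggUGUAuaaacuuuagu

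For 9 further genes the site with the most transitions after the 3′ end was looked up, and it fell on the first U of a UGUA in 6 of them. These 6 are shown for the different bases around the tetramer, and the remaining 3, rpl44, rpl31 and rpl39, had a UGUA nearby but another crosslinked base. They lie in the flank of rpl801 (chrI:4250493-4250521, minus strand), rpl15 (chrIII:2100587-2100615, plus strand), rpl3401 (chrI:4093318-4093346, minus strand), rpl2101 (chrII:2503107-2503135, minus strand), rpl26 (chrII:1558074-1558102, minus strand) and rpl4302 (chrII:1513261-1513289, minus strand). The transitions at these bases numbered 34 in 284 reads, 31 in 282, 31 in 262, 30 in 355, 24 in 245 and 23 in 127, in the same order.
rpl801: cuUGUAaacccacaUGUAaacauccaauu
rpl15: agaaaguaguuaacUGUAuucaacaauaa
rpl3401: auauuuuauuaacuUGUAgauggugguau
rpl2101: uuuucauguuaaccUGUAgauucuuagau
rpl26: auggcguaauuaagUGUAcauugaguaag
rpl4302: aguaaagcugcacaUGUAcuuugaacaug

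The site list holds 15789 sites on the nuclear chromosomes, at a median of 13 reads and 2 transitions per site, and 57.2% of the nuclear sites rest on 2 transitions. The 603 sites of the large-subunit genes were covered more deeply, at a median of 96 reads and 6 transitions, and 6.30% of them rest on 2 transitions. In all they held 5373 transitions over 90721 reads, a read being counted at every site it covers. These genes are 1.49% of the protein-coding genes and held 5.52% of the sites found in the windows of protein-coding genes.

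Nearly all of the genes were contacted. At least 1 site lay in the window of 74 of the 76 genes (97.4%, 90.9% to 99.3%), beside 67.3% of all protein-coding genes. Within 250 nt after the 3′ end, 61 of the 76 genes had at least 1 site (80.3%, 70.0% to 87.7%), beside 25.8% of all protein-coding genes. In 22 of the 76 genes (28.9%, 19.96% to 39.96%) 10 or more sites were found, beside 2.56% of all protein-coding genes. The median depth per site also differed, as given above, and its part in these shares was not tested. In a bulk culture, more cells that express a gene and more RNA per cell cannot be told apart.

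The number of sites per gene was uneven, with quartiles at 4, 6 and 11 sites, a highest number of 31, and 2 genes without a site. In between, 15 genes had 1 to 3 sites and 37 had 4 to 9. The 10 genes with the most sites held 195 of the 603 sites (32.3%). Across all protein-coding genes the median was 1 site and the highest number 38, on seb1 itself. Of the 27 protein-coding genes with 16 or more sites, 8 were large-subunit genes.

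**Figure D1:**
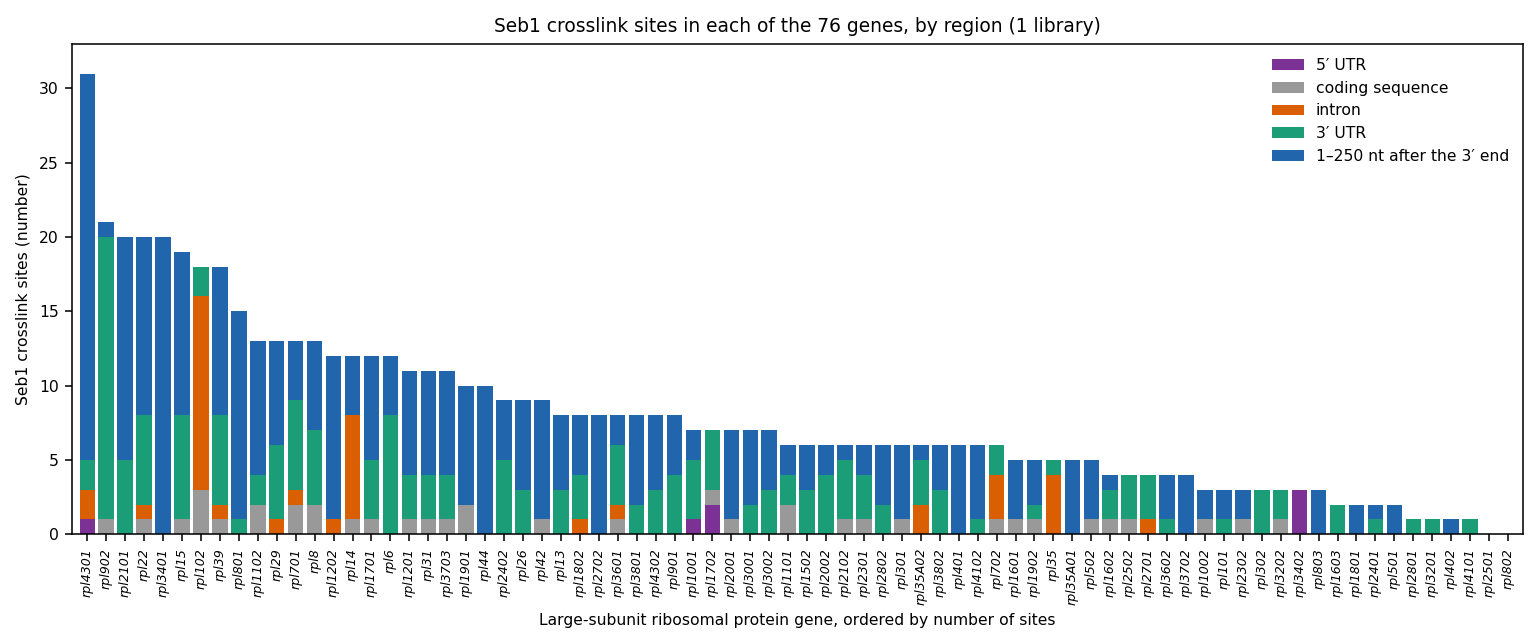
Number of Seb1 crosslink sites (vertical axis) in each of the 76 large-subunit ribosomal protein genes (horizontal axis, ordered by number of sites), stacked by region, from 1 PAR-CLIP library. Sites after the 3′ end make up most of the bar in many of the genes, while rpl902 carries 19 of its 21 sites in the 3′ UTR, rpl102 carries 13 of its 18 in its intron, and rpl2501 and rpl802 have none.

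The genes of the other ribosomal proteins gave similar values. All 55 genes of the small (40S) subunit had at least 1 site, 49 of them (89.1%, 78.2% to 94.9%) had one after the 3′ end, and 11 (20%, 11.6% to 32.4%) had 10 or more. Their median was 6 sites, as in the large-subunit genes. The 7 genes of the P stalk, acidic proteins of the large subunit that recruit translation factors and do not fall under the symbol rule, all had sites, with a median of 6. Of these, rpp102 had 11 sites, rpp0 had 9, and rpp201 had 2.

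Genes for factors that assemble the large subunit gave lower numbers. Of 35 genes, 30 (85.7%) had at least 1 site and 17 had one after the 3′ end, with a median of 2 sites and none with 10 or more. Site numbers were not adjusted for transcript length, which had a median of 693.5 nt in the large-subunit genes and 1603 nt in these. The 3 genes with the most sites were mdn1, the AAA ATPase that remodels the precursor particle, nop2, a ribosomal RNA methyltransferase, and rlp7, each with 9 sites. In mdn1 and nop2 none of the 9 lay after the 3′ end. Sites of these genes lay after the 3′ end in 25.5% of cases and within 25 nt of a UGUA in 36.8%.

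Sites of the large-subunit genes lay mostly downstream of the transcript. The share after the 3′ end was 56.7% (52.7% to 60.6%), or 342 of 603 sites, beside 50.0% (44.9% to 55.1%) in the small-subunit genes and 20.1% in the 4982 other protein-coding genes, which include the P stalk and assembly factor genes. Both sides of the 3′ end carried sites in 51 genes, 10 genes had sites after it only, and 13 had sites in the transcript only. In 42 genes more sites lay after the 3′ end than in the transcript. This split was not counted over all protein-coding genes, of which 3443 had a site and 1318 had one after the end. The median site after the end lay 68 nt downstream in the large-subunit genes, 63 nt in the small-subunit genes and 86 nt in the other protein-coding genes.

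Since only uridines can be crosslinked, densities were taken per 1000 uridines of each region. After the 3′ end the large-subunit genes had 49.8 sites per 1000 uridines (342 sites), and in the 3′ UTR 39.2 (177 sites). Introns held 18.997 per 1000 uridines (39 sites) and 5′ UTRs 18.8 (7 sites), while the coding sequence held 3.49 (38 sites). The density after the end was 3.40 times that of the whole transcript with introns (2.89 to 4.01, from the exact binomial interval of the share). The like ratio of the other protein-coding genes is not given here. In the other protein-coding genes the same regions held 5.11, 3.18, 2.53, 2.66 and 2.07 sites per 1000 uridines, which is the same order for the flank, the 3′ UTR and the coding sequence at lower values. The coding sequence was the region in which the density differed least, 3.49 against 2.07.

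In bins of 25 nt, the density of the large-subunit genes was highest just past the 3′ end. The bin from 1 to 25 nt held 75 sites in 40 genes, or 95.7 per 1000 uridines, and the bin from 26 to 50 nt held 85.5. Upstream, the last 25 nt of the transcript held 66.5. The density came down to 33.5 at 101 to 125 nt and 13.5 at 226 to 250 nt after the end. In the other protein-coding genes the highest bin, from 26 to 50 nt after the end, held 7.13 sites per 1000 uridines.

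**Figure D2:**
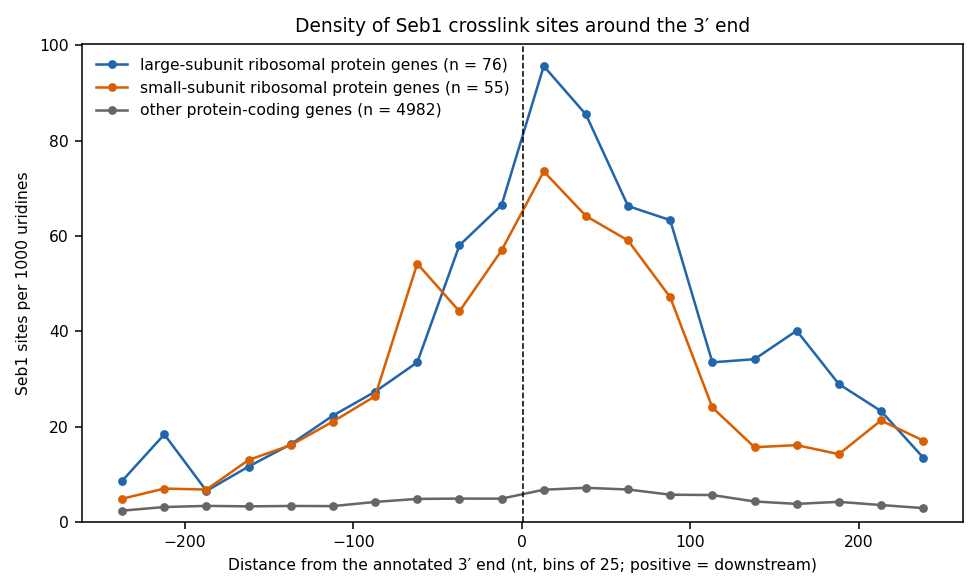
Seb1 crosslink sites per 1000 uridines (vertical axis) in bins of 25 nt around the annotated 3′ end (horizontal axis, dashed line at the end), for the large-subunit, small-subunit and other protein-coding genes, from 1 library without error bars. The large-subunit curve is highest at 95.7 in the first 25 nt after the end, the small-subunit curve has its highest bin at the same place, and the other genes stay at or below 7.13.

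The occupancy places each site against the RNA available to it. Transitions divided by the deposited occupancy gave a whole number, within a relative tolerance of 1e-06, at all 14882 nuclear sites with an occupancy below 1. It was read as the number of RNA-Seq reads of WT cells over the base and is called the RNA-Seq coverage. The occupancy does not exceed 1, and at that maximum the coverage is not known. In the large-subunit genes the median occupancy was 0.00101 in the coding sequence, 0.00408 in the 3′ UTR, 0.0870 in introns and 0.0606 after the 3′ end. The median coverage at the same sites was 9651, 1346, 111 and 114 reads, so low occupancy stood beside high coverage. After the 3′ end the median occupancy of the large-subunit sites was below that of the other protein-coding genes, at 0.0606 against 0.0870, with a median coverage of 114 against 40 reads. The small-subunit genes had 0.0500 at a coverage of 102 reads. By region, the large-subunit median was below that of the other protein-coding genes in the 3′ UTR and coding sequence (theirs 0.0323 and 0.0299). In introns it was above theirs, 0.0870 against 0.0571, but 13 of the 39 intron sites lay in rpl102, each at 0.0901 or more. In 5′ UTRs it was 0.364 against 0.0934, from only 7 sites in 4 genes, with 1 rpl4301 site as the median. A site must first pass the call on transitions, so occupancy at called sites depends in part on the coverage by construction.

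Coverage fell around the 3′ end while contacts continued. In bins of 25 nt the median coverage at sites was uneven further upstream, from 444 to 10764 reads between 249 and 50 nt before the end, where a bin holds 4 to 24 sites. It was 798 reads at 49 to 25 nt before the end, 248 in the last 25 nt and 177 at 1 to 25 nt after the end. In 50 genes with a known coverage on both sides, the median over sites in the transcript was a median of 18.8 times that after the end, and it was higher in the transcript in 45 of the 50. The exceptions were rpl901, rpl3001, rpl1602, rpl3002 and rpl1502, with ratios of 0.587, 0.619, 0.683, 0.859 and 0.931. In rpl901, 2 of the 4 sites after the end, at 686 and 1057 reads, lie in the annotated non-coding transcript SPNCRNA.3022 on the same strand. The remaining pair had 86 and 92 reads, beside a median of 228.5 in the transcript.

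**Figure D3:**
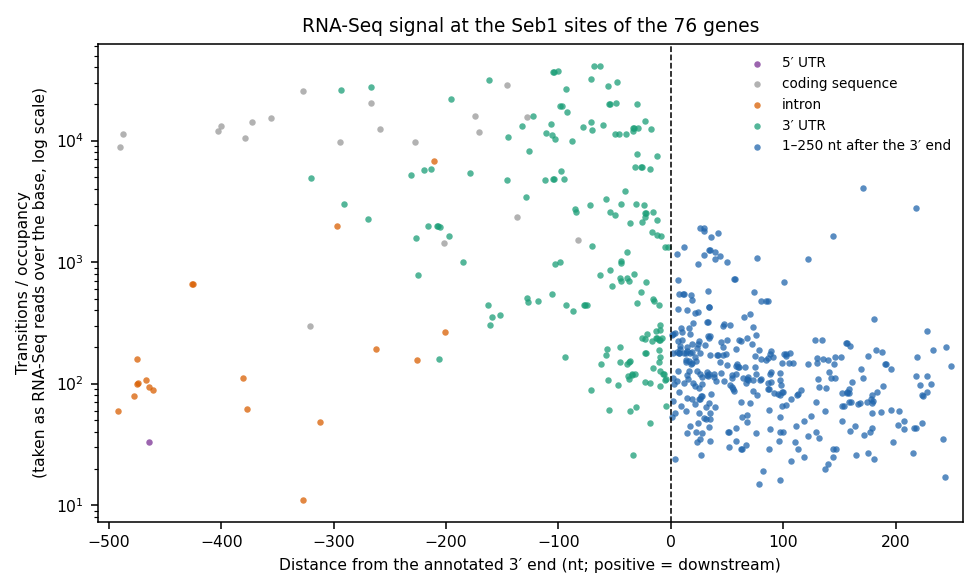
Transitions divided by occupancy, taken as RNA-Seq coverage in reads (vertical axis, log scale), at each Seb1 site of the large-subunit genes against the distance from the annotated 3′ end (horizontal axis, sites from 500 nt before the end on, sites at the maximum occupancy left out). Each point is 1 site coloured by region. The median coverage per bin of 25 nt lies between 444 and 10764 reads from 249 to 50 nt before the end, at 248 reads in the last 25 nt and at 177 reads in the first 25 nt after it.

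UGUA stood near most sites. Of the 603 sites, 401 (66.5%, 62.6% to 70.2%) had a UGUA within 25 nt on the transcribed strand, against 26.7% of all 24707 uridines in the same windows. After the 3′ end it was 74.6% (69.7% to 78.9%) of sites against 49.1% of uridines, and in the transcript 55.9% (49.9% to 61.8%) against 18.1%. Neighbouring sites often share a UGUA, so sites are not independent here. Since the motif was itself derived from this PAR-CLIP experiment, the shares describe the sites of these genes and are no independent test of it. By region, the share was 63.3% in the 3′ UTR, 53.8% in introns and 21.1% in the coding sequence. In the other protein-coding genes 40.5% of sites had a UGUA within 25 nt. GUAG, which overlaps UGUA by 3 letters, was near 49.7% of sites after the end and 25.1% of uridines there.

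Within UGUA, the called sites lay almost only on the first U. The crosslinked base was the first U of a UGUA at 124 of the 603 sites (20.6%, 17.5% to 24.0%), whereas 1.92% of the window uridines hold that position. The other U of the tetramer was crosslinked at 3 sites (0.498%, 0.169% to 1.45%), although it makes up the same 1.92% of uridines. That U directly follows a G, after which RNase T1 cuts, and the part of the digestion in this difference was not tested. The small-subunit genes gave 20.2% and 0.829%. The other protein-coding genes gave 12.2% (11.6% to 12.9%) and 0.712%, and the first U of a UGUA is also rarer among their window uridines, at 1.29%. Relative to the uridines, sites at the first U were 10.7 times as frequent in the large-subunit genes (9.14 to 12.5, from the interval of the share), 10.6 times in the small-subunit genes and 9.48 times in the other protein-coding genes (8.99 to 9.99).

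A UGUA was far from always contacted, where contacted means that its first U was a called site. In the 250 nt after the 3′ end the large-subunit genes have 255 UGUA, on average 3.36 per gene, and the first U was a site at 84 of them (32.9%, 27.5% to 38.9%). The 3′ UTRs hold 127, of which 29 (22.8%, 16.4% to 30.9%) were contacted at that base, and the coding sequences hold 50, of which 4 were. In the other protein-coding genes the average after the end is 1.72 per gene, and 4.84% of those UGUA were contacted at their first U. Sites of those genes had a median of 12 reads and 2 transitions, against 96 and 6 in the large-subunit genes. The part of this depth in the shares was not tested. Where a G followed, as in UGUAG, 28 of 53 UGUA after the end were contacted (52.8%, 39.7% to 65.6%), against 24 of 96 before A (25%), 8 of 25 before C (32.0%) and 24 of 81 before U (29.6%). The other protein-coding genes also had their highest share before G, at 8.03%, with 6.11% before C, 3.78% before U and 3.77% before A. In the small-subunit genes it was 34.2% before G, 20.9% before A, 17.6% before C and 12.8% before U. RNase T1 can also cut after this G, and its part in these shares was not tested.

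The number of UGUA differed between the large-subunit genes. At least 1 UGUA lies in the 250 nt after the end of 72 of the 76 genes (94.7%), and in the same stretch of 82.6% of all protein-coding genes. The 12 genes with 0 to 1 UGUA had a median of 1 site after the end (0 to 7), the 32 with 2 to 3 had a median of 3 (0 to 20), and the 32 with 4 or more had a median of 5 (0 to 26). Spearman's rho between both numbers over the 76 genes was 0.41, given as a description since the genes share the library. The ranges overlap widely. The rho between transcript length and sites was -0.21.

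The gene with the most sites was rpl4301, one of the genes for eL43, a zinc-binding protein (SPBC800.04C, chrII:259506-259990, minus strand). It had 31 sites with 870 transitions, of which 26 lay 7 to 196 nt after the end, and the highest summed occupancy of the group, 7.40. These 26 sites had 6 to 66 transitions each, with a median of 23, and 21 of them had a UGUA within 25 nt. The 2 sites in the 3′ UTR, 23 and 18 nt before the end, had a coverage of 14376 and 12337 reads and an occupancy of 0.000974 and 0.000892. At 7 nt after the end the coverage was 177 reads and the occupancy 0.198. At 106 nt after the end, on the UGUA shown above, the occupancy was at its maximum of 1. Of the 26 sites, 25 lie within the annotated non-coding transcript SPNCRNA.4629 on the same strand, so they cannot be assigned to the mRNA alone.

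The other eL43 gene, rpl4302 (SPBC83.02C, chrII:1513330-1513751, minus strand), had 8 sites with 58 transitions, 5 of them after the end, and 2 of the 8 lie in the annotated non-coding transcript SPNCRNA.5218. Its strongest site, 55 nt after the end, held 23 transitions in 127 reads at an occupancy of 0.256. The coding sequences of this pair are 78.2% identical, and the 250 nt after the end hold 6 UGUA in rpl4301 and 3 in rpl4302.

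All sites of rpl3401, one of the genes for L34 (SPAC23A1.08C, chrI:4093344-4093798, minus strand), lay after the 3′ end. There were 20, from 11 to 179 nt downstream, with 4 to 31 transitions. The coverage fell from 542 reads at the first of these sites to 69 at the last, while the occupancy was 0.0240 at the first and 0.0725 at the last, with a highest value of 0.204 at 97 nt. Its copy rpl3402 (SPCC1322.15, chrIII:1321348-1322217, plus strand) had 3 sites with 4, 3 and 2 transitions, all in the 5′ UTR and none after the end. The coding sequences are 85.3% identical, with 3 UGUA after the end of rpl3401 and 1 after that of rpl3402.

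In rpl102, one of the genes for uL1, which forms the mobile L1 stalk (SPBC30D10.18C, chrII:3060549-3061591, plus strand), the contacts lay in the intron. The intron of 261 nt (chrII:3060958-3061218) held 13 of the 18 sites and 376 of the 406 transitions, and no site lay after the 3′ end, where there are 6 UGUA. The sites at the printed UGUA, 5 nt apart, had 60 transitions in 440 reads and 146 in 462, both at the maximum occupancy. The other 11 intron sites had 9 to 26 transitions and an occupancy of 0.0901 to 0.667. The 2 sites in the 3′ UTR had 3 and 5 transitions. The copy rpl101 (SPCC1183.08C, chrIII:611797-612579, minus strand) has no intron and had 3 sites with 4, 2 and 3 transitions, the latter pair 6 and 12 nt after the end.

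The genes for uL2, a protein close to the peptidyl transferase centre, are 3 in number and ranged from many sites to none. In rpl801 (SPAC1F7.13C, chrI:4250595-4251437, minus strand) 14 of 15 sites lay after the end, 8 to 224 nt downstream, with 4 to 34 transitions. Its only site in the transcript, 34 nt before the end, had a coverage of 12016 reads, and the first site after the end had 205. In rpl803 (SPBC839.04, chrII:601252-602186, plus strand) 3 sites lay 24, 29 and 157 nt after the end with 3, 5 and 2 transitions, and in rpl802 (SPBC2F12.07C, chrII:1726665-1727577, plus strand) there was none. The coding sequences are 90.8% to 93.0% identical between these copies. The 250 nt after the end hold 6, 3 and 0 UGUA in rpl801, rpl803 and rpl802.

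**Figure D4:**
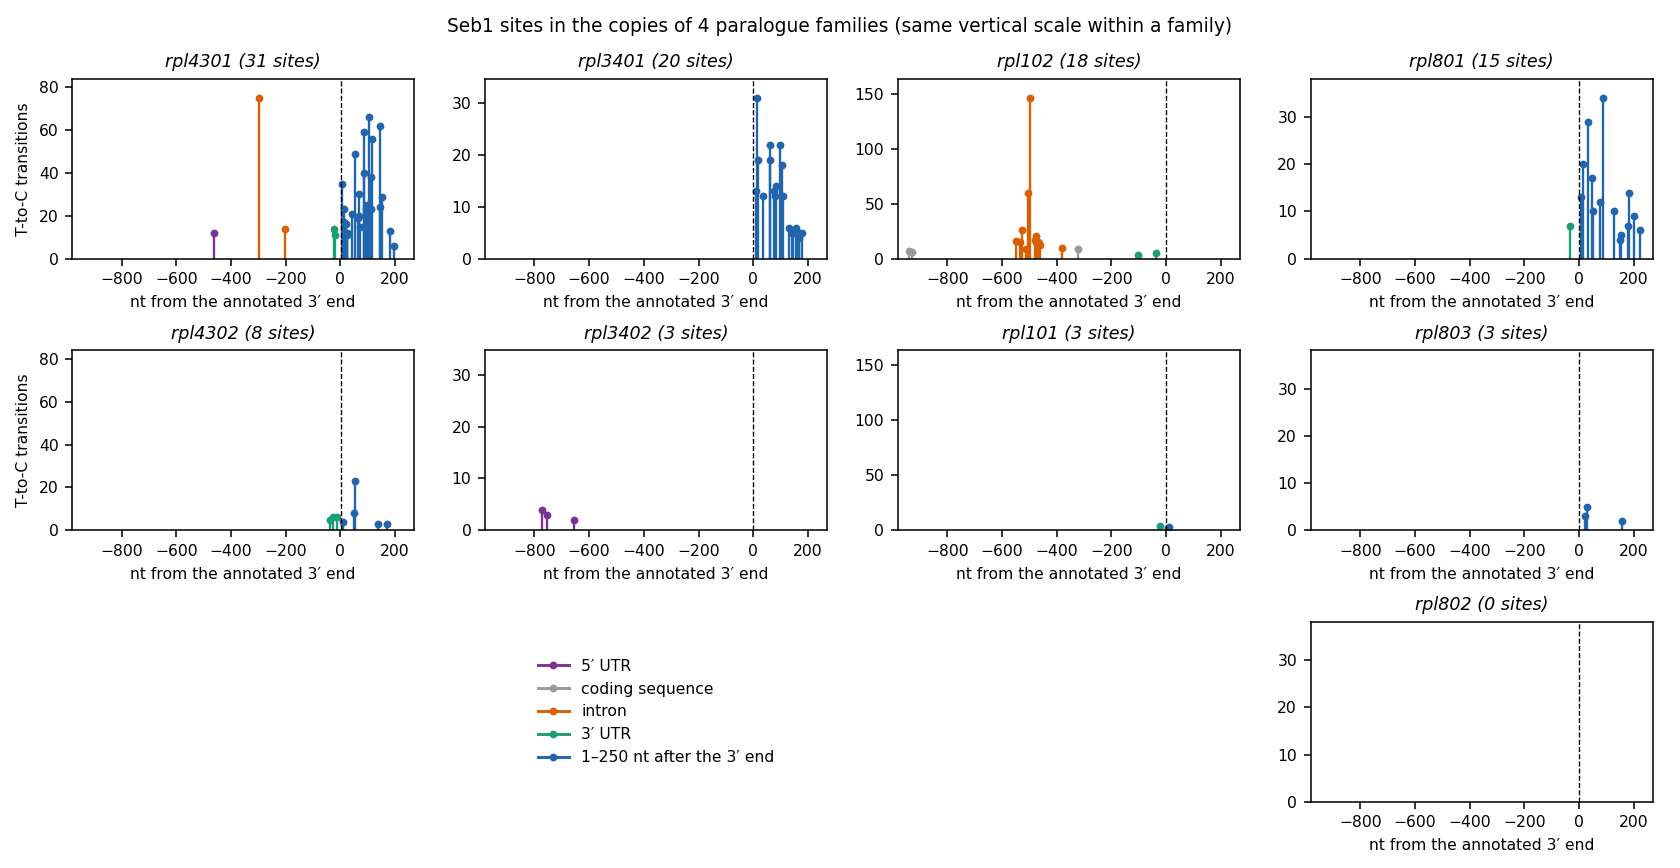
T-to-C transitions (vertical axis, same scale within a family) at each Seb1 site of the copies of 4 paralogue families, by distance from the annotated 3′ end (horizontal axis, nt; dashed line at the end) and coloured by region. One copy of each family carries 15 to 31 sites and the others 0 to 8, with the sites of rpl102 in its intron and those of rpl4301, rpl3401 and rpl801 mostly after the end.

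Unequal copies were common. In the 31 families with more than 1 copy, which hold 64 of the 76 genes, the copies differed by a median of 5 sites, by 5 or more in 17 families, and not at all in 1, the eL30 genes rpl3001 and rpl3002 with 7 each. Over 35 pairs of copies the coding sequences had a median identity of 87.8% (66.1% to 99.6%), and the 250 nt after the end a median of 46.0% (40.8% to 52.8%). The copy with more sites after the end did not always have more UGUA there. Such cases were rpl901, with 4 sites and 1 UGUA against 1 site and 5 UGUA in rpl902, and rpl15, given below. How many pairs go each way was not counted. Reads could in part be assigned to the wrong copy in conserved stretches. Of the 603 sites, 602 have 31 nt around them that occur once in the genome, and none of the sites after the end is the exception.

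A read of one transcript can also look like a T-to-C transition in another, or in the intron of its own gene. For 3 sites, with 204 transitions (3.80% of the total), the surrounding 25 nt with the T-to-C change occur exactly elsewhere. They were the printed coding site of rpl1201, found so in the spliced transcript of its copy rpl1202, the printed intron site of rpl4301, at the second base of the intron, found in the spliced rpl4301 transcript, and a site of rpl3703 with 13 transitions in 365 reads, found in the spliced transcript of its copy rpl3702. The transition share at the first pair, 28.3% and 32.9%, was well above the median of 6.82% over all sites of the large-subunit genes. At the rpl3703 site it was 3.56%, and at the strongest site, in the rpl102 intron with no such match, it was 31.6%. How many reads at the 3 sites came from the matching transcript was not tested.

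Several genes with many sites had them on both sides of the end. In rpl2101, for eL21 (SPBC365.03C, chrII:2503183-2503780, minus strand), 15 of 20 sites lay after the end and 19 had a UGUA within 25 nt. The coverage of its sites fell from 3808 reads 41 nt before the end to 71 reads at the printed site, 62 nt after it, where the occupancy was 0.423. The summed occupancy of 3.19 was the third highest of the group. The copy rpl2102 had 6 sites, of which 1 lay after the end, with 1 UGUA there against 5 after rpl2101.

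In rpl22, for eL22 (SPAC11E3.15, chrI:5314824-5315429, plus strand), 12 of 20 sites lay 1 to 135 nt after the end with 6 to 14 transitions. In rpl15, for the rRNA-binding protein eL15 (SPCC576.11, chrIII:2099846-2100555, plus strand), 11 of 19 sites lay after the end, 10 of these with a UGUA within 25 nt. Its coverage was 20065 reads 55 nt before the end, 2219 reads 12 nt before it, 409 reads 6 nt after it and 17 reads at 244 nt, and the occupancy at these sites was 0.000648, 0.00361, 0.0171 and 0.353. The copy rpl1502 had 6 sites, of which 3 lay after the end, with 6 UGUA there against 4 after rpl15.

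Low occupancy also occurred with many sites. In rpl39, whose small protein lines the exit tunnel for the nascent peptide (SPCC663.04, chrIII:1641016-1641395, plus strand), the 18 sites had a summed occupancy of only 0.205. Of these, 10 lay 26 to 134 nt after the end, where the coverage was 1894 reads at the first site and 228 at the last. The median occupancy of these 10 was 0.0117, beside 0.175 for the 26 sites after the end of rpl4301. In rpl1102, for uL5, which binds the 5S rRNA in the central protuberance (SPBC17G9.10, chrII:2189713-2190349, plus strand), 9 of 13 sites lay after the end with 3 to 15 transitions. The genes rpl29, rpl701 and rpl8 also had 13 sites.

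The annotated 3′ end decides on which side a site is counted. In rpl902, for L9 (SPCC613.06, chrIII:89780-90644, plus strand), 19 of 21 sites lay in an annotated 3′ UTR of 295 nt and 1 after the end. The coverage at these sites was 25837 and 27501 reads at 293 and 267 nt before the end, 1995 at 216 nt and 444 at 163 nt before it, and 679 at the last site, 22 nt before it. The fall thus lay inside the annotated 3′ UTR, upstream of 17 of its sites. The strongest site, 77 nt before the end, had 23 transitions in 197 reads.

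Summed occupancy brought in 2 more genes, with 26 transitions in rpl1702 and 79 in rpl701. In rpl1702, for uL22, which reaches into the exit tunnel (SPCC364.03, chrIII:481893-482830, minus strand), the sum of 2.02 came almost wholly from a pair of 5′ UTR sites at the maximum occupancy with 4 and 5 transitions. No site and no UGUA lay in the 250 nt after its end. In rpl701, annotated as a subunit of RNase MRP similar to ribosomal protein L7 (SPBC18H10.12C, chrII:1790906-1792295, minus strand), the sum of 1.82 included 1 site at the maximum with 9 transitions. Its strongest site, with 26 transitions in 819 reads, lies in the intron and within the annotated snoRNA snoR39b. Over the group, 9 sites in 7 genes were at the maximum, and the median summed occupancy was 0.337.

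Introns were contacted in 14 of the 37 genes that have one. Among all 5113 protein-coding genes, 321 had an intron site, a site shared by several genes being counted in 1 of them. How many of the 5113 have an intron was not counted, so no like share stands beside the 14. Of the 39 intron sites, 13 lay in rpl102 and 7 in rpl14, whose intron of 244 nt had 45 transitions at 56 to 77 reads per site, and 4 lay in rpl35. Within 5 nt of a splice site there were 4 sites, 2 of them at the second base of the intron.

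No site was found in rpl802 and in rpl2501 (SPBC106.18, chrII:413527-414503, plus strand), one of the genes for uL23 at the mouth of the exit tunnel. The site list holds only bases that passed the authors' calling, so no upper limit follows from these zeros. After the end of rpl2501 there are 3 UGUA, and the copy rpl2502 had 4 sites with 12 transitions, none after the end.

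The downstream neighbour differed between the genes. Counting protein-coding neighbours only, the next gene points towards the large-subunit gene in 39 cases, at a median gap of 175 nt, and these had a median of 4 sites after the end (0 to 26), with at least 1 in 31. In the 37 genes followed by a gene of the same direction, at a median gap of 681 nt, the median was 3 (0 to 15), with at least 1 in 30. Both ranges overlap almost fully. Within the windows, 41 sites of 9 genes also lie in another annotated gene of the same strand, 25 of them in rpl4301, 5 in rpl31 and 3 in rpl29, where the gene is the snoRNA snR93.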

How the data were processed

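One PAR-CLIP library of Seb1-TAP cells was used. Per the labels the authors aligned to ASM294v2. The site caller's settings are not given in the sources used here. The authors deposited 15824 sites, each with a count of transitions and a count of reads, neither normalized, a p-value (at most 0.00499, not used further) and an occupancy, a fraction of 0 to 1 made with 1 RNA-Seq library. All 15789 nuclear sites lie on a T of their strand in ASM294v3. The remaining 35 were left out.

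Sites were assigned to genes and regions by position. Motifs were searched within 25 nt on the site's strand. The calculations used scipy 1.17.1, matplotlib 3.10.9, pandas 2.3.3 and numpy 2.4.6 under Python 3.11.15, and were tested on simulated data. The assembly factor list had 40 symbols, 37 of them matched, and 35 were used because lsg1 and rrp1 are annotated as other proteins. Members and lists were chosen with earlier results of these data known. Named genes were the 10 with most sites (ties by symbol), the 5 with the highest summed occupancy, those without a site and the copies of the 4 families differing most in sites. Others, and the printed sites beyond the 10 with most transitions, were chosen after their values were seen. Family membership followed the number in the symbol, and rpl15 was added to rpl1502 after the values were seen. Alternatives varied the window, the end, the sites kept and the motif distance.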

Additional observations from a re-analysis of the deposited data

How the results depend on the processing

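The results were the number of genes with a site, the number of sites, the median per gene, the share after the 3′ end, the share with UGUA and the density ratio. Of 61 values under alternatives, 54 counted as unchanged (a count within 1.5 times, another value within its interval), 7 moved and 0 reversed. With sites within 10 nt counted as 1, there were 409 sites in place of 603, the median was 5 sites and the UGUA share 59.2%. With 150 nt after the end in place of 250 nt, the share after the end was 51.1% and the density ratio 4.37. With the end of the coding sequence as the 3′ end these were 84.0% and 9.71, since sites of the 3′ UTR then count as downstream. With UGUA within 10 nt the share was 50.6%, against 12.4% of uridines. Leaving out rpl4301 and rpl102, or the 3 sites whose changed sequence occurs elsewhere, both chosen after seeing the data, moved none of the 6. Depth limits the values of single sites, which hold a median of 6 transitions. No paired analysis was possible because the sites come from 1 library without replicates.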

Other observations

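Beyond the windows, 53 sites lay 251 to 500 nt after the 3′ ends of 26 of the large-subunit genes. Of these, 44 sites in 21 genes lay outside any annotated gene of that strand. Downstream of rpl1201 there were 7, of rpl15 7 and of rpl3002 4. On the opposite strand of the windows there were 25 sites in 14 genes. Of these, 14 sites in 7 genes lay outside any annotated gene of that strand, 6 of them opposite rpl35A01 and 3 opposite rpl1602. An annotated gene lies on the opposite strand of the window in 70 of the 76 genes. None of the counts in this paragraph was made over all protein-coding genes, so no background stands beside them.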
